A study of Mus musculus with 2 samples.

Results

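Genes of glucose uptake and glycolysis, 10 in number, were followed across the cell populations of the embryonic mouse thymus. They were chosen by symbol and not ranked by a measured value, though earlier results of these data were known. The genes are Slc2a1, Slc2a3, Hk1, Hk2, Gpi1, Pfkl, Aldoa, Pgk1, Pkm and Ldha. All 10 were found among the 22032 genes of a single-cell RNA-sequencing count table. The cells came from a double-negative 1 (DN1) sort, the earliest of the thymocyte stages that lack CD4 and CD8. The embryos were of the mouse strain named 5x polychromILC. This strain is known to carry reporters at several transcription factor genes of innate lymphoid cells, Rora among them. The labels list an E15.5_DN1 and an E19.5_DN1 sample, named by embryonic day, with 1 library each, and both share the reporter strain and the sort. The table carries 2 barcode suffixes, with 2182 barcodes in suffix 1 and 3875 in suffix 2, and no label ties a suffix to a stage. The stages were therefore not compared, and populations are compared within a suffix. Each suffix is taken here as 1 library, which is an inference from the barcode format.

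Glycolysis converts glucose into pyruvate in the cytosol. Transporters of the SLC2A family bring glucose in, hexokinases phosphorylate it, and a chain of enzymes then splits and oxidises the sugar to yield ATP and NADH. Lactate dehydrogenase turns pyruvate into lactate and so restores the NAD+ that the chain needs. Lymphoid cells are known to draw on this route when they grow and divide, and the transcription factors HIF-1 and MYC are known activators of many of its genes.

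Barcodes were assigned to populations by raw counts of unique molecular identifiers (UMIs, tags that mark single captured molecules). A barcode needed at least 2 UMIs of each of a pair of genes. Spi1 and Bcl11a marked progenitors, and Icos and Rora group 2 innate lymphoid cells (ILC2). Xcl1 and Nkg7 marked natural killer cells and group 1 innate lymphoid cells (NK/ILC1), and Cd3d and Sox13 gamma-delta T cells. Cd3g and Myb marked T-cell precursors like those of the DN2/DN3 stages, though the cells were sorted as DN1. Barcodes that met several of the first 4 gates were left out, 37 in suffix 1 and 29 in suffix 2, and DN2/DN3 barcodes met none of those 4. ILC2 barcodes with at least 5 UMIs of Ly6a, which encodes the surface antigen Sca-1, formed a Ly6a-high set. Of 5412 barcodes that passed the quality filters, 3685 (68.1%) met a gate. The sets of suffix 1 and suffix 2 held 195 and 320 ILC2 Ly6a-low, 932 and 500 NK/ILC1, 134 and 112 DN2/DN3 and 284 and 595 progenitor barcodes. ILC2 Ly6a-high barcodes numbered 18 in suffix 1 and 478 in suffix 2, and gamma-delta T barcodes 17 and 100. The smaller set of each pair was under the minimum of 20 barcodes, which left 10 measured sets. There were no replicates, so no test was run. Levels are UMIs summed over a set and scaled to 1000000 UMIs of that set (CPM), with no scaling by gene length because a UMI tags one 3′ end, and all 95% intervals cover counting error only.

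Marker genes that the gates did not use mostly followed the labels of the gates. Those of DN2/DN3 did not set this population apart from gamma-delta T barcodes, and ILC2 Ly6a-low barcodes of suffix 1 also held NK/ILC1 markers. NK/ILC1 barcodes of suffix 1 also held mast cell and basophil markers. The summed level of 13 ILC2 markers was 929 to 1896 CPM in the ILC2 sets and 163 to 413 CPM in the others. That of 13 NK/ILC1 markers was 4584 to 5997 CPM in the NK/ILC1 sets. ILC2 Ly6a-low barcodes of suffix 1 had 929 CPM of the ILC2 markers and 703 CPM of the NK/ILC1 markers, with Gzma at 409 CPM. Of the NK/ILC1 list, Gzma was also high in gamma-delta T barcodes (3641 CPM) and in DN2/DN3 barcodes (2261 CPM in suffix 1, 737 CPM in suffix 2), and it reached 424 CPM in progenitors of suffix 1 against 36.4 CPM in suffix 2. The 12 DN2/DN3 markers summed to 1426 and 1807 CPM in DN2/DN3 barcodes of suffix 1 and suffix 2, to 1831 CPM in gamma-delta T barcodes, and to 337 to 664 CPM elsewhere. Of 11 gamma-delta T markers 10 were in the table, and they summed to 2721 CPM in gamma-delta T barcodes and 482 to 1305 CPM elsewhere. Within this list Sox4, Tcf7 and Cd163l1 each peaked in another set. Sox4 had 507 CPM in gamma-delta T and 660 CPM in progenitors of suffix 2. Tcf7 had 368.5 CPM in gamma-delta T and 444 CPM in DN2/DN3 of suffix 2. Cd163l1 had 210 CPM in gamma-delta T and 761 CPM in ILC2 Ly6a-low of suffix 1. Progenitor markers summed to 798 and 1081 CPM in progenitors of suffix 1 and suffix 2, and to at most 382 CPM elsewhere. Of 12 thymic epithelium markers all had a UMI in NK/ILC1 barcodes of suffix 1, summing to 114 CPM there, and the range over the other sets was 41.0 to 141 CPM. Erythroid genes, mainly Hbb-bt, summed to 775 CPM in progenitors of suffix 1 and 508 CPM in those of suffix 2, and the range over all other sets was 3.11 to 541 CPM. Fcer1g, on the myeloid list, had 1321 and 2027 CPM in NK/ILC1 barcodes of suffix 1 and suffix 2, where the macrophage gene Cd68 had 2.63 and 2.09 CPM. Mast cell and basophil markers summed to 244 CPM in NK/ILC1 barcodes of suffix 1 and 9.0 CPM in those of suffix 2. They summed to 5.64 to 17.9 CPM in ILC2 and 192 to 368 CPM in gamma-delta T, DN2/DN3 and progenitor barcodes. Cpa3 of this list had 114 and 4.18 CPM in NK/ILC1 barcodes of suffix 1 and suffix 2, and Cma1 72.3 and 0.482 CPM. The progenitor genes Spi1 and Lyl1 had 49.5 and 43.3 CPM in NK/ILC1 of suffix 1, and 4.82 and 2.09 CPM in suffix 2. The part of these transcripts in the results below was not tested beyond the values given beside them. Of the barcode sequences, 25 occurred in both suffixes, 3 of them among kept barcodes.

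The 10 genes together took the largest share of the UMIs in ILC2 barcodes and the smallest in NK/ILC1 barcodes of suffix 2. Their summed level was 4295 CPM in ILC2 Ly6a-high barcodes of suffix 2, and 4459 and 4491 CPM in ILC2 Ly6a-low barcodes of suffix 1 and suffix 2. It was 3309 and 2456 CPM in NK/ILC1, 3992 CPM in gamma-delta T (suffix 2), 3228 and 3857 CPM in DN2/DN3, and 3052 and 2810 CPM in progenitor barcodes of suffix 1 and suffix 2. Counted per barcode the order was another one, as progenitor barcodes held more UMIs in all. The median barcode held 48.0 UMIs of the 10 genes in the ILC2 Ly6a-high set, 77.0 and 53.5 in the Ly6a-low sets, 36.0 and 24.0 in NK/ILC1, 57.0 in gamma-delta T, 103.5 and 94 in DN2/DN3, and 100 and 85.0 in progenitors. Median UMIs of all genes were 11700 to 18958 in the ILC2 sets, 11704 and 11072 in NK/ILC1, and 33762 and 32962 in progenitors. CPM therefore describes the share of captured transcripts that these genes make up, and whether total RNA per cell differed was not tested. The gates ask for raw UMIs and so favour deep barcodes. With gates on UMIs thinned to equal depth, progenitors went from 284 to 31 barcodes in suffix 1 and from 595 to 57 in suffix 2. NK/ILC1 went from 932 to 746 and from 500 to 454. The part of the gates in the depth and order per barcode was not tested.

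Slc2a1 (ENSMUSG00000028645, chr4:119108711-119137983, plus strand, GRCm38) encodes GLUT1, the widely expressed basal glucose transporter. Its level was 27.3 CPM in ILC2 Ly6a-high barcodes (suffix 2), 19.7 (suffix 1) and 24.6 CPM (suffix 2) in ILC2 Ly6a-low, and 19.4 and 23.9 CPM in NK/ILC1 barcodes of suffix 1 and suffix 2. It was 15.8 CPM in gamma-delta T (suffix 2), 13.8 and 11.0 CPM in DN2/DN3, and 18.6 and 15.2 CPM in progenitors of suffix 1 and suffix 2. The innate lymphoid sets stood above DN2/DN3 within each suffix, while in suffix 1 the interval of ILC2 Ly6a-low overlapped those of NK/ILC1, DN2/DN3 and progenitor barcodes. Slc2a3 (ENSMUSG00000003153, chr6:122727809-122801640, minus strand) encodes GLUT3, a transporter of high glucose affinity. It had 4.55 CPM in ILC2 Ly6a-high, 4.67 and 4.24 CPM in ILC2 Ly6a-low, and 6.42 and 7.39 CPM in NK/ILC1 barcodes of suffix 1 and suffix 2. It had 18.8 CPM in gamma-delta T, 10.7 and 12.0 CPM in DN2/DN3, and 14.4 and 12.9 CPM in progenitors of suffix 1 and suffix 2. All 5 innate lymphoid sets lay below all 5 other sets, the reverse of the order for Slc2a1.

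Hk1 (ENSMUSG00000037012, chr10:62268855-62379908, minus strand) encodes the housekeeping hexokinase, which traps glucose as glucose 6-phosphate. It had 40.1 CPM in ILC2 Ly6a-high, 21.5 and 32.5 CPM in ILC2 Ly6a-low, and 19.6 and 33.3 CPM in NK/ILC1 barcodes of suffix 1 and suffix 2. It had 37.6 CPM in gamma-delta T, 17.8 and 23.7 CPM in DN2/DN3, and 18.7 and 19.9 CPM in progenitors of suffix 1 and suffix 2. In suffix 1 the 4 measured sets lay within 17.8 to 21.5 CPM with overlapping intervals, whereas in suffix 2 the innate and gamma-delta T sets stood above the progenitors. Hk2 (ENSMUSG00000000628, chr6:82725025-82774454, minus strand) encodes the inducible hexokinase of proliferating and hypoxic cells. It had 12.9 CPM in ILC2 Ly6a-high, 25.4 and 20.8 CPM in ILC2 Ly6a-low, and 5.68 and 7.71 CPM in NK/ILC1 barcodes of suffix 1 and suffix 2. It had 11.7 CPM in gamma-delta T, 15.0 and 14.9 CPM in DN2/DN3, and 20.2 and 22.7 CPM in progenitors of suffix 1 and suffix 2. Within each suffix NK/ILC1 barcodes were the lowest for Hk2.

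Gpi1 (ENSMUSG00000036427, chr7:34201330-34230336, minus strand) encodes the isomerase that makes fructose 6-phosphate. It had 384 CPM in ILC2 Ly6a-high, 325 and 409 CPM in ILC2 Ly6a-low, and 299 and 265 CPM in NK/ILC1 barcodes of suffix 1 and suffix 2. It had 464 CPM in gamma-delta T, 314 and 404 CPM in DN2/DN3, and 342 and 364 CPM in progenitors of suffix 1 and suffix 2. The whole range was under 2-fold. Pfkl (ENSMUSG00000020277, chr10:77986947-78010083, minus strand) encodes the liver-type subunit of phosphofructokinase, the committing and most tightly regulated step. It had 99.2 CPM in ILC2 Ly6a-high, 76.7 and 95.7 CPM in ILC2 Ly6a-low, and 53.9 and 46.1 CPM in NK/ILC1 barcodes of suffix 1 and suffix 2. It had 102 CPM in gamma-delta T, 76.9 and 119 CPM in DN2/DN3, and 76.6 and 99.3 CPM in progenitors of suffix 1 and suffix 2. Both genes were lowest in NK/ILC1 barcodes within each suffix, and Pfkl was nearly the same in ILC2 Ly6a-low and progenitor barcodes.

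Aldoa (ENSMUSG00000030695, chr7:126795234-126800751, minus strand) encodes the aldolase that splits fructose 1,6-bisphosphate. It had 1112 CPM in ILC2 Ly6a-high, 963 and 1088 CPM in ILC2 Ly6a-low, and 548 and 534 CPM in NK/ILC1 barcodes of suffix 1 and suffix 2. It had 716 CPM in gamma-delta T, 435 and 587 CPM in DN2/DN3, and 476 and 493 CPM in progenitors of suffix 1 and suffix 2. All 3 ILC2 sets lay above all other sets, and the gamma-delta T set came next. Pgk1 (ENSMUSG00000062070, chrX:106187100-106203699, plus strand) encodes phosphoglycerate kinase, the earlier of the ATP-producing steps. It had 525 CPM in ILC2 Ly6a-high, 629 and 597 CPM in ILC2 Ly6a-low, and 404 and 295 CPM in NK/ILC1 barcodes of suffix 1 and suffix 2. It had 537 CPM in gamma-delta T, 449 and 549 CPM in DN2/DN3, and 452 and 434 CPM in progenitors of suffix 1 and suffix 2. The Ly6a-low sets were the highest of their suffix and the NK/ILC1 sets the lowest.

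Pkm (ENSMUSG00000032294, chr9:59656368-59679375, plus strand) encodes pyruvate kinase, whose splice forms PKM1 and PKM2 are summed in a count per gene. It had 795 CPM in ILC2 Ly6a-high, 1005 and 896 CPM in ILC2 Ly6a-low, and 806 and 417 CPM in NK/ILC1 barcodes of suffix 1 and suffix 2. It had 1100 CPM in gamma-delta T, 844 and 917 CPM in DN2/DN3, and 709 and 606 CPM in progenitors of suffix 1 and suffix 2. NK/ILC1 barcodes lay above progenitors in suffix 1 and below them in suffix 2. Ldha (ENSMUSG00000063229, chr7:46841475-46855627, plus strand) encodes the lactate dehydrogenase subunit that favours lactate formation. It had 1296 CPM in ILC2 Ly6a-high, 1389 and 1323 CPM in ILC2 Ly6a-low, and 1148 and 828 CPM in NK/ILC1 barcodes of suffix 1 and suffix 2. It had 990 CPM in gamma-delta T, 1051 and 1219 CPM in DN2/DN3, and 925 and 743 CPM in progenitors of suffix 1 and suffix 2. Progenitors were the lowest set of each suffix for Ldha. Several of these enzymes have near-identical pseudogenes in the mouse genome, so reads could be split among copies. A separate row for an Aldoa-named gene (ENSMUSG00000114515) held 2 UMIs in the table, and the related genes Aldoart1, Pgk2 and Ldhc held 4, 0 and 13.

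**Figure D1:**
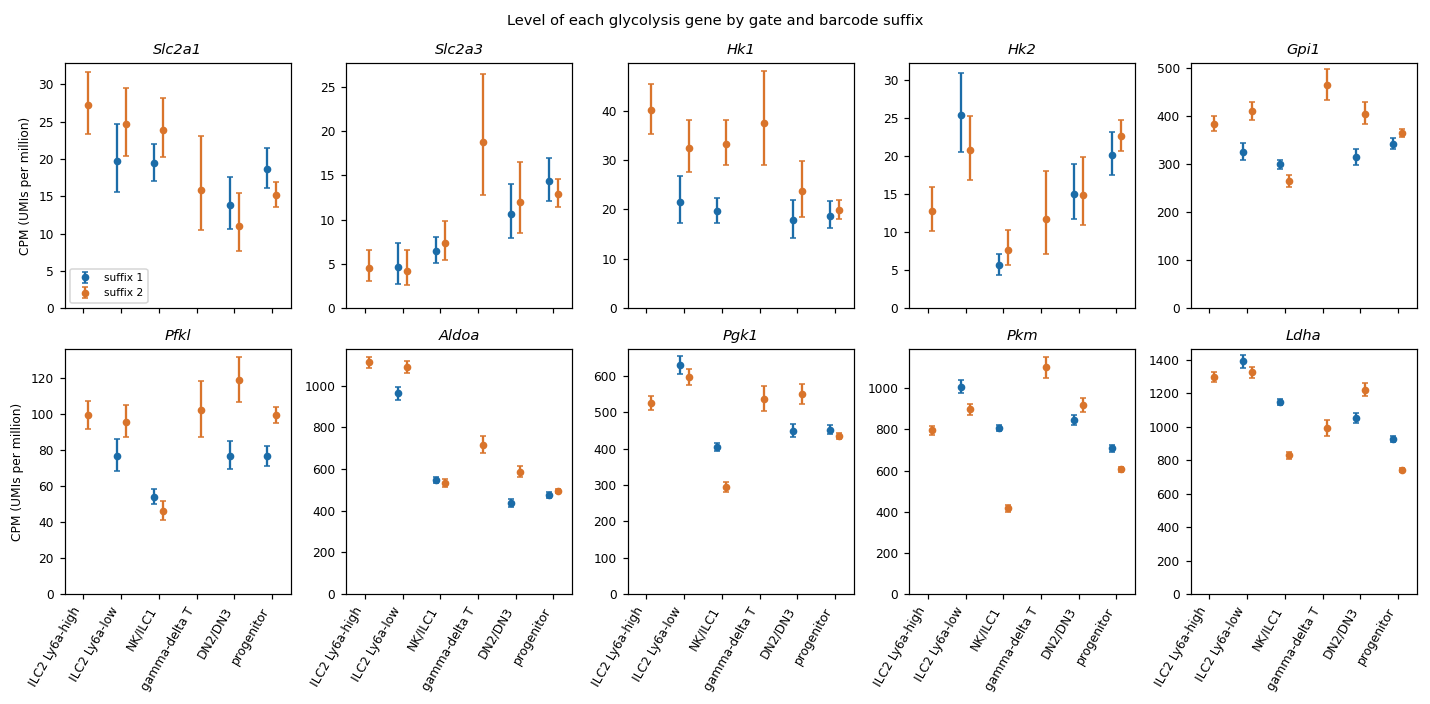
Level of each of the 10 genes in CPM (vertical axes, each from 0) by gate, within suffix 1 (blue) and suffix 2 (orange); bars are exact Poisson 95% intervals of the summed UMIs. Aldoa is highest in the ILC2 sets (963 to 1112 CPM), Hk2 lowest in NK/ILC1 (5.68 and 7.71 CPM), and Slc2a3 low in ILC2 and NK/ILC1 barcodes.

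ILC2 barcodes were set against progenitors to ask how these genes differ between an innate lymphoid population and uncommitted cells. Aldoa was higher and Slc2a3 lower in every ILC2 set, and Pkm, Ldha and Pgk1 were higher by less than 2-fold. The log2 ratio of Aldoa was 1.17 (1.13 to 1.22) in Ly6a-high barcodes of suffix 2, and 1.01 (0.95 to 1.08) in suffix 1 and 1.14 (1.09 to 1.19) in suffix 2 of Ly6a-low barcodes. Of these values the one of suffix 1 was under 1 in 6 of 12 alternative settings, with a lowest value of 0.86. Slc2a3 had log2 ratios of -1.51 (-2.11 to -0.95) in Ly6a-high, and -1.63 (-2.42 to -0.92) and -1.61 (-2.34 to -0.95) in Ly6a-low barcodes of suffix 1 and suffix 2. Ldha had 0.80 in Ly6a-high, and 0.59 and 0.83 in Ly6a-low barcodes, while Pkm had 0.39, 0.505 and 0.57 and Pgk1 0.27, 0.48 and 0.46 in the same order of sets. Pfkl did not differ beyond counting error, at -0.00099 (-0.13 to 0.13), 0.0022 (-0.20 to 0.20) and -0.053 (-0.20 to 0.094). The remaining genes varied by suffix or Ly6a set. In the same order of sets Slc2a1 was at 0.85, 0.081 and 0.70, and Hk1 at 1.01, 0.20 and 0.71. Hk2 was at -0.82 (-1.18 to -0.48), 0.33 (-0.035 to 0.68) and -0.13 (-0.45 to 0.19), and Gpi1 at 0.077, -0.073 and 0.17.

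Of the 10 genes, 2 were higher past a log2 ratio of 1 in Ly6a-high barcodes over progenitors (Aldoa, and Hk1 at 1.01, which came to 0.54 with gates on UMIs thinned to equal depth) and 1 was lower (Slc2a3). Of all 11156 genes with at least 20 UMIs in that comparison, 32.9% lay past a log2 ratio of 1 in either direction. In Ly6a-low barcodes 1 gene was higher (Aldoa) and 1 lower (Slc2a3) in each suffix, beside 24.5% of all genes in suffix 1 and 27.8% in suffix 2. These shares are close to or below those of all genes. The median log2 ratio of the 10 genes was 0.33 in Ly6a-high, and 0.26 in suffix 1 and 0.51 in suffix 2 of Ly6a-low barcodes, and the medians of all genes were -0.18, -0.071 and -0.11. Summed cycling markers were 2323 CPM in ILC2 Ly6a-high against 1833 CPM in progenitors of suffix 2, and 3614 CPM in ILC2 Ly6a-low against 2422 CPM in progenitors of suffix 1. Among barcodes with no UMI of Mki67 or Top2a after thinning to equal depth the medians were 0.30, 0.31 and 0.39.

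**Figure D2:**
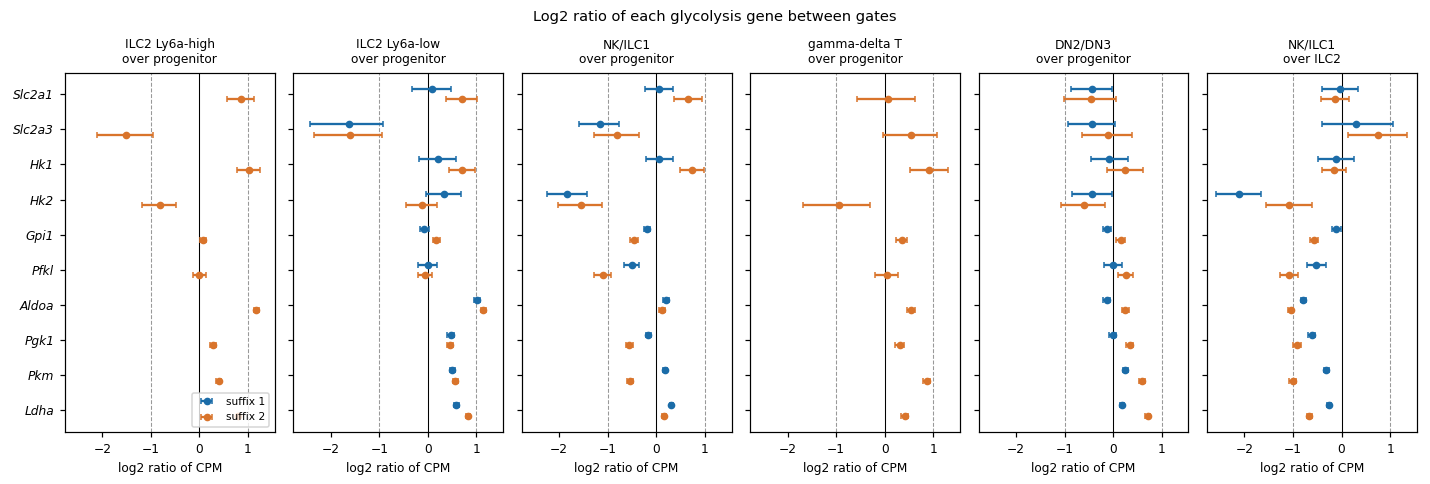
Log2 ratio of CPM (horizontal axes) of each gene in 6 comparisons, within suffix 1 (blue) and suffix 2 (orange); bars are exact 95% counting intervals and dashed lines mark log2 ratios of -1 and 1. In ILC2 over progenitor Aldoa lies at 1.01 to 1.17 and Slc2a3 at -1.63 to -1.51, and in NK/ILC1 over progenitor Hk2 lies at -1.83 and -1.56.

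Hk2, the inducible hexokinase, had the lowest log2 ratio of the 10 genes in each suffix of NK/ILC1 over progenitor barcodes. It rested on 69 and 48 UMIs in NK/ILC1 barcodes of suffix 1 and suffix 2. Hk2 had 5.68 CPM in NK/ILC1 against 20.2 CPM in progenitors of suffix 1 (log2 ratio -1.83, -2.25 to -1.43), and 7.71 against 22.7 CPM in suffix 2 (-1.56, -2.02 to -1.12). Hk1 and Slc2a1 were higher in suffix 2, at 0.74 (0.49 to 0.99) and 0.66 (0.37 to 0.95), and at 0.064 and 0.060 in suffix 1. Gpi1 was at -0.19 in suffix 1 and -0.46 in suffix 2, Pgk1 at -0.16 and -0.56, and Pkm at 0.19 and -0.54. Aldoa was at 0.20 and 0.11, and Ldha at 0.31 and 0.15. Slc2a3 was at -1.17 in suffix 1 and -0.81 in suffix 2, and Pfkl at -0.51 and -1.11. Slc2a3 in suffix 1 came under the threshold with median-of-ratios scaling (-0.96) and without barcodes of at least 3 thymic epithelium UMIs (-0.96). It did so too among barcodes with no UMI of Mki67 or Top2a after thinning (-0.98). Pfkl in suffix 2 did so (-0.99) with median-of-ratios scaling. In all, 2 of the 10 genes were lower past a log2 ratio of -1 in suffix 1 (Hk2 and Slc2a3) and 2 in suffix 2 (Hk2 and Pfkl), beside 27.7% and 33.3% of all genes past 1 in either direction. The median of the 10 genes was -0.051 in suffix 1 and -0.50 in suffix 2, and that of all genes -0.33 and -0.16. In suffix 1, 713 of 932 NK/ILC1 barcodes held no UMI of the epithelial genes Krt8 and Prss16, and over these the median was -0.048. Cycling markers summed to 2786 CPM in NK/ILC1 against 2422 CPM in progenitors of suffix 1, and to 1803 against 1833 CPM in suffix 2. Median-of-ratios scaling raised every ratio by 0.21 in suffix 1 and 0.12 in suffix 2. Under it Gpi1 and Pgk1 in suffix 1 went above 0, at 0.014 and 0.047.

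Gamma-delta T barcodes, measured in suffix 2, had higher Hk1 and Pkm and lower Hk2 than progenitors, none of them past 2-fold. Pkm had 1100 CPM in gamma-delta T and 606 CPM in progenitor barcodes (log2 ratio 0.86, 0.79 to 0.93). Hk1 had 37.6 and 19.9 CPM (0.92, 0.51 to 1.30), and Hk2 11.7 and 22.7 CPM (-0.95, -1.68 to -0.31). Of the 10 genes 0 lay past a log2 ratio of 1, beside 23.3% of all genes, and 9 lay above 0, beside 49.0% of all genes. Of those 9, Slc2a1 (0.064), Pfkl (0.040) and Slc2a3 (0.54, -0.039 to 1.07) were within counting error. Slc2a1 and Pfkl each turned below 0 in 4 of 12 alternatives, and Slc2a3 did so with gates on thinned UMIs (-0.51). Hk1, Hk2, Slc2a3 and Pkm passed 1 or -1 under some alternatives, Hk2 in 5 of 12. The median was 0.38, and that of all genes -0.019. Cycling markers summed to 3212 CPM in gamma-delta T and 1833 CPM in progenitor barcodes. Among barcodes with no UMI of Mki67 or Top2a after thinning the median was 0.56.

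DN2/DN3 barcodes had levels close to those of progenitors, with 0 of the 10 genes past a log2 ratio of 1 in either suffix, beside 6.98% of all genes in suffix 1 and 12.9% in suffix 2. In suffix 2 Ldha had 1219 CPM in DN2/DN3 against 743 CPM in progenitors (log2 ratio 0.71, 0.66 to 0.76) and Pkm 917 against 606 CPM (0.60, 0.54 to 0.66). In suffix 1 the same genes were at 0.18 (0.13 to 0.23) and 0.25 (0.20 to 0.31). Hk2 was lower in both suffixes, at -0.43 and -0.61, with intervals that excluded 0. Hk2 passed -1 in both suffixes with gates on thinned UMIs (-1.14 and -1.03), on 93 and 51 DN2/DN3 and 31 and 57 progenitor barcodes. In suffix 2 it was at 0.13 among barcodes with no UMI of Mki67 or Top2a after thinning (20 DN2/DN3 and 251 progenitor barcodes). The medians were -0.10 in suffix 1 and 0.25 in suffix 2, and those of all genes -0.017 and 0.0058. In suffix 2 cycling markers summed to 3530 CPM in DN2/DN3 and 1833 CPM in progenitors, and all 16 were above progenitors. Among barcodes of suffix 2 with no UMI of Mki67 or Top2a after thinning the median was 0.33.

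Set against each other, NK/ILC1 barcodes had lower levels than all ILC2 barcodes for 9 of the 10 genes in each suffix, while 34.1% of all genes in suffix 1 and 49.3% in suffix 2 had a ratio above 0. With median-of-ratios scaling Slc2a1 (0.19), Hk1 (0.10) and Gpi1 (0.11) were above 0 in suffix 1 too. Slc2a3 was the exception, at log2 ratios of 0.30 (-0.39 to 1.06) in suffix 1 and 0.74 (0.13 to 1.35) in suffix 2. Aldoa had 548 CPM in NK/ILC1 against 945 CPM in ILC2 of suffix 1 (-0.79, -0.84 to -0.73), and 534 against 1102 CPM in suffix 2 (-1.04, -1.10 to -0.99). Hk2 was at -2.11 (-2.57 to -1.66) in suffix 1 and -1.07 (-1.56 to -0.61) in suffix 2. Hk1 and Slc2a1 did not differ beyond counting error in either suffix. In suffix 1, 1 gene lay past -1 (Hk2), beside 17.4% of all genes past 1 in either direction. In suffix 2, 4 did (Hk2, Pfkl, Aldoa and Pkm), beside 17.5%. Of those 4, Pfkl stayed past -1 in all 12 alternatives, while Pkm missed it in 4 (at most -0.95) and Hk2 (-0.97) and Aldoa (at most -0.94) in 2 each. The medians were -0.29 and -0.79, and those of all genes -0.24 and -0.0060. Cycling markers summed to 2786 CPM in NK/ILC1 against 3612 CPM in ILC2 of suffix 1, and 1803 against 2497 CPM in suffix 2. Without barcodes that held a UMI of Mki67 or Top2a after thinning the medians were -0.28 and -0.78.

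Within ILC2 of suffix 2, the Ly6a-high and Ly6a-low sets were close for most genes, with 0 of 10 past a log2 ratio of 1, beside 4.45% of all genes. Hk2 was lower in Ly6a-high barcodes, at 12.9 against 20.8 CPM in Ly6a-low (log2 ratio -0.69, -1.14 to -0.26), and at -1.07 with gates on thinned UMIs. Pgk1 and Pkm were slightly lower, at -0.19 and -0.17, and Hk1 slightly higher, at 0.31 (0.011 to 0.60). Aldoa and Ldha did not differ beyond counting error. The Ly6a split uses a raw count and so can depend on depth. Ly6a-high barcodes were the shallower, with medians of 11700 UMIs per barcode in Ly6a-high and 13555 in Ly6a-low. The part of depth in the split was not tested.

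Suffix 1 and suffix 2 were compared within each gate, with the stage of each not known here. In NK/ILC1 barcodes Pkm was at 806 CPM within suffix 1 and 417 CPM within suffix 2 (log2 ratio 0.95, 0.89 to 1.01), Ldha 1148 and 828 CPM (0.47), Pgk1 404 and 295 CPM (0.46), and Hk1 19.6 and 33.3 CPM (-0.76). Of the 10 genes 0 lay past a log2 ratio of 1 in NK/ILC1, beside 22.7% of all genes, and Pkm passed it in 3 alternatives. In progenitors 0 did, beside 5.22%, and Ldha was at 0.32 and Pfkl at -0.37. In ILC2 Ly6a-low barcodes 0 did, beside 7.92%, and Hk1 was at -0.59. In DN2/DN3 barcodes 0 did, beside 6.99%, and Pfkl was at -0.62 and Aldoa at -0.43. The median was 0.11 in NK/ILC1, 0.0044 in progenitors, -0.053 in ILC2 Ly6a-low and -0.25 in DN2/DN3 barcodes. The summed cycling markers of NK/ILC1 barcodes were at 2786 CPM within suffix 1 and 1803 CPM within suffix 2, and those of progenitors to 2422 and 1833 CPM.

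The rest of the pathway was read from lists of related genes. Between ILC2 Ly6a-low and progenitor barcodes, Pfkp and Slc16a3 differed by more than any of the 10 genes. Pfkp, the platelet-type subunit of phosphofructokinase, had 68.7 CPM in ILC2 Ly6a-low against 10.8 CPM in progenitors of suffix 1 (log2 ratio 2.67, 2.34 to 3.00), and 122 against 10.0 CPM in suffix 2 (3.60, 3.37 to 3.84). Slc16a3, the lactate exporter MCT4, had 76.0 against 14.5 CPM in suffix 1 (2.39) and 67.3 against 7.87 CPM in suffix 2 (3.10). Slc16a1, the lactate carrier MCT1, ran the other way, with 10.6 against 27.8 CPM (-1.38) and 10.4 against 27.3 CPM (-1.39). Eno1, enolase, had 445 against 187 CPM (1.25) and 517 against 182 CPM (1.502). The abundant enzymes between them differed less. Gapdh was at 0.44 and 0.35, Tpi1 at 0.11 and 0.11, and Pgam1 at -0.15 and -0.28. Of 23 listed genes of glycolysis and lactate transport, 14 had enough UMIs in suffix 1, where 4 were higher and 2 lower past a log2 ratio of 1, and 15 in suffix 2, where 3 were higher and 2 lower. The shares of all genes past 1 were 24.5% and 27.8%. Ly6a-high barcodes of suffix 2 had 4 higher and 3 lower of 15, beside 32.9% of all genes. NK/ILC1 barcodes had 6 higher and 1 lower of 16 in suffix 1 (27.7% of all genes), and 6 higher and 4 lower of 16 in suffix 2 (33.3%). Pfkp was at 1.27 and 2.26 in NK/ILC1 over progenitors, Slc16a3 at 1.25 and 1.67, and Slc16a1 at -2.005 and -1.79. Over ILC2, NK/ILC1 barcodes had Pfkp at -1.44 and -1.24, Slc16a3 at -1.07 and -1.40, and Ldhb at -1.37 and -2.86.

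**Figure D3:**
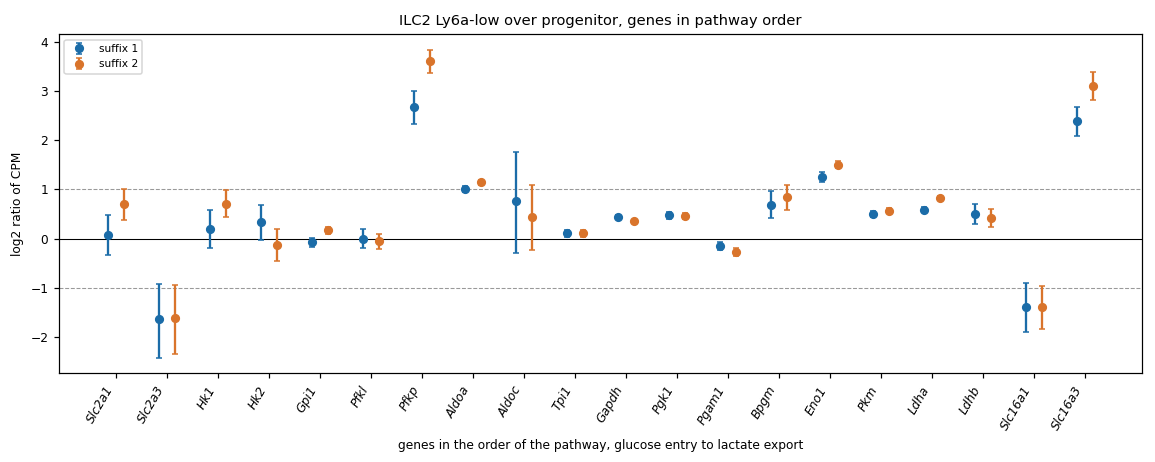
Log2 ratio of CPM (vertical axis) in ILC2 Ly6a-low over progenitor barcodes for genes in pathway order, within suffix 1 (blue) and suffix 2 (orange), with exact 95% counting intervals and dashed lines at -1 and 1. Pfkp, Aldoa, Eno1 and Slc16a3 stand above 1, Slc2a3 and Slc16a1 below -1, and Gpi1, Pfkl, Tpi1 and Pgam1 near 0.

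In gamma-delta T over progenitor barcodes of suffix 2, 6 of 15 measured genes of the list were higher past 1 and 0 lower, beside 23.3% of all genes past 1 in either direction, among them Pfkp (3.13), Slc16a3 (2.76) and Ldhb (1.71), the lactate dehydrogenase subunit that favours pyruvate. In DN2/DN3 barcodes 1 of 14 was higher in suffix 1 (6.98% of all genes in either direction) and 4 of 15 in suffix 2 (12.9%). The gene of suffix 1 was Pgam2, a muscle-type phosphoglycerate mutase, singled out after its values were seen, at 32.4 against 4.71 CPM (2.78, 2.30 to 3.29). Pfkp was at 0.35 (-0.11 to 0.81) in suffix 1 and 2.15 (1.82 to 2.46) in suffix 2.

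Other lists cover the routes around glycolysis, and in ILC2 Ly6a-low over progenitor barcodes their counts stand beside 24.5% of all genes past 1 in either direction in suffix 1 and 27.8% in suffix 2. Of 10 genes that set fructose 2,6-bisphosphate or run gluconeogenesis, 4 of 6 measured were lower past 1 and 1 higher in ILC2 Ly6a-low over progenitor barcodes of suffix 1, and 6 of 7 lower in suffix 2. Pfkfb3, which makes that allosteric activator, was at 4.67 against 12.9 CPM (log2 ratio -1.47) and 5.09 against 10.3 CPM (-1.02). G6pc3, a glucose 6-phosphatase, was at -1.61 and -1.36, and Pck2, a mitochondrial PEP carboxykinase, at -2.52 and -3.60. Fbp1, a gluconeogenic fructose bisphosphatase, had 79.4 CPM in DN2/DN3 against 21.1 CPM in progenitors of suffix 1 (1.91, 1.66 to 2.16), and 30.8 against 9.07 CPM in suffix 2 (1.76, 1.39 to 2.13). Of 7 genes of the pentose phosphate pathway, which branches off at glucose 6-phosphate, 1 was lower past 1 in suffix 1 and 2 in suffix 2 of ILC2 Ly6a-low, and 0 were higher, which is close to the share of all genes. Tkt, transketolase, had 430 CPM in ILC2 Ly6a-low against 858 CPM in progenitors of suffix 1 (-0.995) and 280 against 730 CPM in suffix 2 (-1.38). Pgls, a lactonase, was at -1.02 in both suffixes, Taldo1, transaldolase, at -0.27 and -0.58, and Pgd at -0.26 and -0.59. In NK/ILC1 over progenitor barcodes Tkt was at -0.92 and -1.48.

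Genes that carry pyruvate into the mitochondrion, or that form or regulate pyruvate dehydrogenase, mostly stayed within 2-fold between ILC2 Ly6a-low and progenitor barcodes. Of 12, 1 of 10 measured in suffix 1 and 0 of 11 in suffix 2 were past 1 in ILC2 Ly6a-low barcodes. The pyruvate carrier genes Mpc1 and Mpc2 were at 0.69 and -0.17 in suffix 1 and at 0.43 and -0.059 in suffix 2. Pdha1, a subunit of pyruvate dehydrogenase, was at 0.059 and 0.13, and Pdhb, another, at -0.11 and -0.27. Dlat, a further subunit, had 32.15 CPM in ILC2 Ly6a-low against 44.2 CPM in progenitors of suffix 1, and 22.5 against 37.25 CPM in suffix 2. NK/ILC1 barcodes were lower in Pdha1, at 57.0 against 131 CPM in progenitors of suffix 1 (-1.20) and 60.9 against 114 CPM in suffix 2 (-0.90). Pdk1, a kinase that shuts pyruvate dehydrogenase, was also lower there, at 8.48 against 23.4 CPM (-1.47) and 16.6 against 35.7 CPM (-1.11). In ILC2 Ly6a-low against progenitor barcodes Pdk1 had 12.4 and 23.4 CPM in suffix 1, and 38.2 and 35.7 CPM in suffix 2.

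Among 18 regulators, the activators MYC and HIF-1 showed unlike patterns. Myc had 16.9 CPM in ILC2 Ly6a-low against 66.6 CPM in progenitors of suffix 1 (log2 ratio -1.98) and 25.04 against 92.3 CPM in suffix 2 (-1.88), and Mycn was at -2.19 and -2.25. NK/ILC1 barcodes had Myc at -1.89 and -1.79 and Mycn at -2.12 and -4.89, and DN2/DN3 barcodes Mycn at -1.82 and -1.79. Hif1a, the oxygen-regulated subunit of HIF-1, had 70.3 CPM in ILC2 Ly6a-low against 46.2 CPM in progenitors of suffix 1 (0.61) and 73.6 against 38.7 CPM in suffix 2 (0.93). In NK/ILC1 against ILC2 barcodes it had 26.8 and 68.3 CPM in suffix 1 (-1.35) and 37.6 and 76.6 CPM in suffix 2 (-1.02). Egln3, a prolyl hydroxylase that marks HIF for breakdown, was at -1.42 and -1.50 in ILC2 Ly6a-low over progenitors, and Egln1, another, at 0.091 and 0.094. Txnip, which restrains glucose uptake, was at 1.36 and 1.78. Rheb, an activator of mTORC1, was at -0.16 and -0.057, and Slc3a2, a chain of amino acid transporters, at 0.18 and 0.28. In all, 2 of 17 measured regulators were higher and 3 lower past 1 in suffix 1, and 1 and 3 of 17 in suffix 2, close to the 24.5% and 27.8% of all genes.

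Of 14 HIF target genes that lie outside glycolysis, 4 of 12 measured were higher and 3 lower past 1 in ILC2 Ly6a-low over progenitor barcodes of suffix 1, and 3 and 1 of 12 in suffix 2, beside 24.5% and 27.8% of all genes. The median log2 ratio was 0.43 and 0.66. Ero1l, an oxidase of disulfide formation in the endoplasmic reticulum, had 338 CPM in ILC2 Ly6a-low against 20.9 CPM in progenitors of suffix 1 (4.01, 3.80 to 4.23), and 225 against 17.3 CPM in suffix 2 (3.70, 3.53 to 3.88). Ddit4, an inhibitor of mTORC1, was at 1.03 and 2.68, and Bnip3l and Higd1a, mitochondrial proteins, were at 0.59 and 0.56 and at 0.27 and 0.46. NK/ILC1 barcodes had Ero1l at 1.73 and 2.10 over progenitors, and at -2.24 and -1.57 over ILC2. Between the suffixes, 7 of 12 HIF targets were lower past 1 in suffix 1 than in suffix 2 of ILC2 Ly6a-low barcodes, beside 7.92% of all genes in either direction, among them Ddit4 at 22.3 and 95.9 CPM (-2.10), while the 10 glycolysis genes of that set had a median of -0.053.

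Related genes shared the work of a step in different proportions. The families below were chosen after their values were seen, and each share is one of captured 3′ UMIs. Hk2 made up 24.3% (19.8 to 29.2) of hexokinase 1 and 2 UMIs in ILC2 Ly6a-high, 54.1% and 39.0% in ILC2 Ly6a-low, and 22.5% and 18.8% in NK/ILC1 barcodes of suffix 1 and suffix 2. It made up 23.8% in gamma-delta T, 45.9% and 38.7% in DN2/DN3, and 51.9% (46.8 to 57.0) and 53.3% (49.9 to 56.6) in progenitors of suffix 1 and suffix 2. The intervals of NK/ILC1 and progenitor barcodes did not overlap in either suffix. Slc2a3 made up 14.3 to 19.15% of Slc2a1 and Slc2a3 UMIs in ILC2, 24.8% and 23.6% in NK/ILC1, 54.2% in gamma-delta T, 43.6% and 52.1% in DN2/DN3, and 43.6% and 46.05% in progenitor barcodes. Pfkp made up 46.1 to 55.4% of the UMIs of the 3 phosphofructokinase genes Pfkl, Pfkm and Pfkp in ILC2, 30.9% and 50.2% in NK/ILC1, 44.4% in gamma-delta T, 14.6% and 26.4% in DN2/DN3, and 11.6% and 8.66% in progenitor barcodes of suffix 1 and suffix 2. Slc16a3 made up 86.6 to 92.7% of Slc16a1 and Slc16a3 UMIs in ILC2, 83.3% and 76.1% in NK/ILC1, 70.5% in gamma-delta T, 34.2% and 32.5% in DN2/DN3, and 34.4% and 22.4% in progenitor barcodes. Ldhb made up 0.866% of lactate dehydrogenase UMIs in NK/ILC1 barcodes of suffix 2, 14.5% in gamma-delta T, and 5.84% and 6.47% in progenitor barcodes of suffix 1 and suffix 2.

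**Figure D4:**
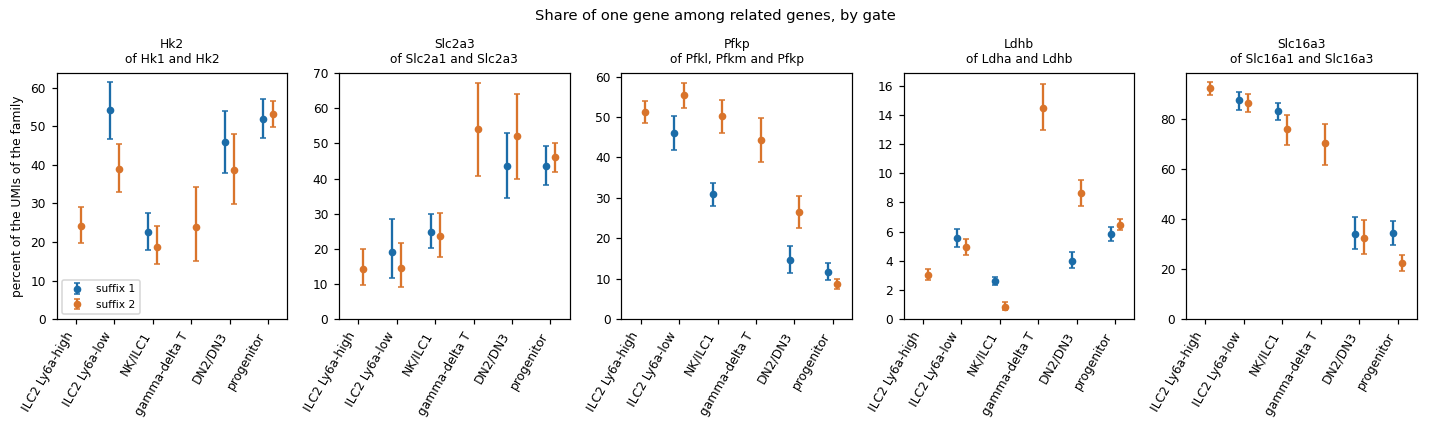
Share of one gene among related genes in percent of their summed UMIs (vertical axes, each from 0), by gate within suffix 1 (blue) and suffix 2 (orange), with exact binomial 95% intervals. Pfkp and Slc16a3 take larger shares in the ILC2 sets (46.1 to 55.4% and 86.6 to 92.7%), the NK/ILC1 sets (30.9 to 50.2% and 76.1 to 83.3%) and gamma-delta T (44.4% and 70.5%) than in progenitors (8.66 to 11.6% and 22.4 to 34.4%).

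Across single barcodes the abundant genes were found nearly everywhere and the transporters and hexokinases in a minority. Each barcode was thinned to 6974 UMIs to equalise depth. Ldha was then found in at least 95.8% of the barcodes of each of the 10 sets, Pkm in at least 89.0%, Aldoa in 92.4 to 99.6% and Pgk1 in 82.3 to 97.7%. Slc2a1 was found in 9.09 to 16.4%, Hk1 in 9.85 to 24.4%, Hk2 in 3.78 to 13.8% and Slc2a3 in 2.97 to 12.2%. Genes that mark one population also had UMIs in others, from free RNA, mixed barcodes or true expression, which were not told apart. Il1rl1, an ILC2 receptor gene, had a UMI in 78.8% of thinned ILC2 Ly6a-high barcodes. The share was 14.3% and 50.2% in ILC2 Ly6a-low barcodes of suffix 1 and suffix 2. Outside ILC2 it was at most 3.19% (DN2/DN3, suffix 2), and 0.352% and 0.337% in progenitors of suffix 1 and suffix 2. Ncr1, an NK receptor gene, had a UMI in 40.6% and 52.6% of NK/ILC1 barcodes and in at most 2.65% elsewhere. Shares of Slc2a3 in ILC2 barcodes, 2.97 to 3.17%, and of Hk2 in NK/ILC1 barcodes, 3.78% and 4.74%, are close to the top of those off-population shares. Before thinning, Slc2a3 was found in 5.44% of ILC2 Ly6a-high, 8.21% and 5.94% of Ly6a-low, and 33.8% and 32.4% of progenitor barcodes of suffix 1 and suffix 2. After thinning the shares were 3.02%, 3.17% and 2.97% in ILC2 and 9.86% and 9.60% in progenitors. For Hk2 the share before thinning was 6.55% and 8.0% in NK/ILC1 and 45.1% and 48.7% in progenitors, and after thinning 3.78% and 4.74% in NK/ILC1 and 11.3% and 11.6% in progenitors of suffix 1 and suffix 2. The median thinned barcode held 7, 6 and 7 UMIs of Aldoa in the ILC2 sets (Ly6a-high, and Ly6a-low of suffix 1 and suffix 2) and 3 in progenitors of each suffix. The quartiles were 4.5 and 9 in Ly6a-high, and 2 and 5 in progenitors of suffix 2, so the sets overlapped.

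Among barcodes at equal depth, the abundant genes varied together only weakly. Pearson correlations of log2 thinned UMIs plus 1 were computed for the 5 genes with a mean of at least 1 UMI, Gpi1, Aldoa, Pgk1, Pkm and Ldha, as a description without a p-value. The median over the 10 pairs of genes was 0.30 in ILC2 Ly6a-low of suffix 1 (189 barcodes), 0.22 in the same set of suffix 2 (303 barcodes) and 0.23 in ILC2 Ly6a-high (463 barcodes). It was 0.13 and 0.097 in NK/ILC1, 0.12 in gamma-delta T, 0.038 and 0.22 in DN2/DN3, and 0.059 and 0.073 in progenitors of suffix 1 and suffix 2. The highest value was 0.47, for Aldoa and Ldha in ILC2 Ly6a-low of suffix 1. The points of such a correlation share a barcode suffix and a depth, and low counts hold it down.

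Cycling barcodes, with at least 2 thinned UMIs of Mki67 or Top2a, were set against barcodes with none of either in the same set, since glycolysis is often linked to proliferation. The median of the 10 genes was not generally higher in cycling barcodes, though Ldha and Pkm were higher in most sets. The median log2 ratio lay between -0.35 (NK/ILC1, suffix 1) and 0.19 (DN2/DN3, suffix 1), and single ratios ran from -2.24 to 0.62. Ldha and Pkm were above 0 in every set except NK/ILC1 of suffix 1. In those sets Ldha was at 0.020 to 0.38 and Pkm at 0.11 to 0.43. The interval of Ldha included 0 in ILC2 Ly6a-high and in ILC2 Ly6a-low of suffix 1. That of Pkm did so in ILC2 Ly6a-low of suffix 1 and in gamma-delta T. Ldha was at 0.20 and 0.33 in progenitors of suffix 1 and suffix 2, and Pkm at 0.28 and 0.14. In NK/ILC1 barcodes these genes differed in direction by suffix. Pkm had 655 CPM in cycling and 935 CPM in other NK/ILC1 barcodes of suffix 1 (-0.51, -0.58 to -0.45), and 481 and 375 CPM in suffix 2 (0.36, 0.24 to 0.48). Ldha was at -0.41 and 0.24. Hk2 was below 0 in all 10 sets, from -1.18 in DN2/DN3 of suffix 2 to -0.17 in progenitors of suffix 1, and its interval excluded 0 in 4 of them. Slc2a3 in gamma-delta T barcodes had 7.57 CPM in 44 cycling and 35.8 CPM in 41 other barcodes (-2.24, -3.72 to -0.95).

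**Figure D5:**
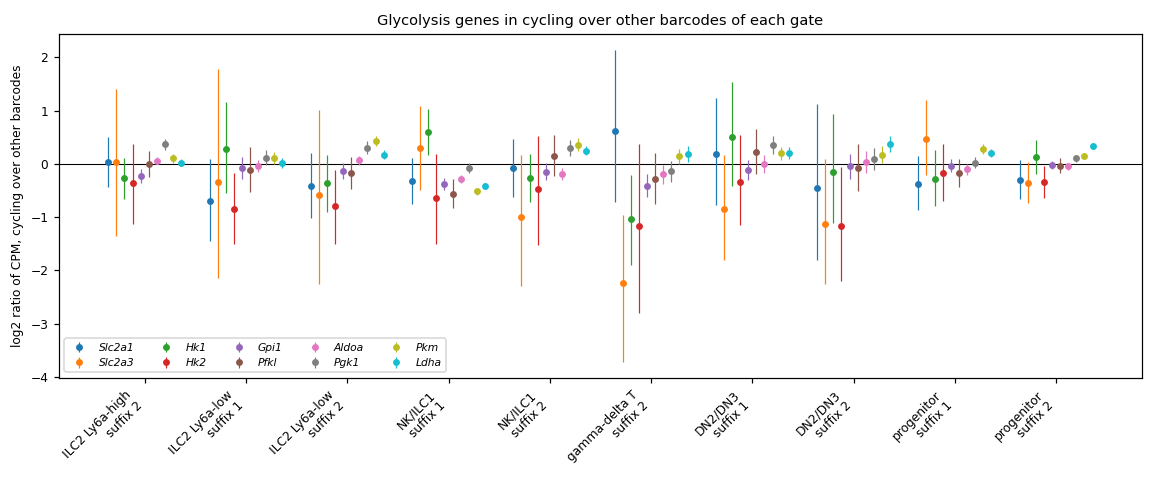
Log2 ratio of CPM (vertical axis) of each gene in cycling over other barcodes of the same gate and suffix, with exact 95% counting intervals. Medians lie between -0.35 and 0.19, and the low point is Slc2a3 in gamma-delta T barcodes at -2.24.

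Promoter sequences of the enzyme genes Aldoa, Pgk1 and Ldha, each higher in every ILC2 set than in progenitors, and of the transporter gene Slc2a1, for which this did not hold beyond counting error in suffix 1, are shown because HIF-1 is known to bind the core motif ACGTG or GCGTG and MYC the E-box CACGTG, which holds ACGTG on both strands. RefSeq (GRCm38.p6) gave windows for 9 of the 10 genes, 14 windows in all. Both strands of the 250 bases before each start were searched. ACGTG or GCGTG was in 10 of the 14 windows, from 8 of 9 genes, and in 38.6% of 32851 windows of the same length. The gene without a match was Gpi1. Pkm, also higher in every ILC2 set than in progenitors, was searched but is not printed. ACGTG was in 7 of the 14 and 16.6% of all windows, and GCGTG in 4 and 28.2%. CACGTG was in 1 of the 14, of Ldha, and in 6.02% of all windows. Below are the 160 bases before a start on the gene's strand, and capitals mark each match on either strand. A match is a description of letters and not a bound site. The windows are Slc2a1 at chr4:119108585-119108744 (plus strand), Aldoa at chr7:126799255-126799414 (minus strand), Pgk1 at chrX:106186940-106187099 (plus strand) and Ldha at chr7:46845644-46845803 (plus strand).
Slc2a1: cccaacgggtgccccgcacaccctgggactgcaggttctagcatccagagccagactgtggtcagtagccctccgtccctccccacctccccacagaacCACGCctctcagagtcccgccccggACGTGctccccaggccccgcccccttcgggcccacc
Aldoa: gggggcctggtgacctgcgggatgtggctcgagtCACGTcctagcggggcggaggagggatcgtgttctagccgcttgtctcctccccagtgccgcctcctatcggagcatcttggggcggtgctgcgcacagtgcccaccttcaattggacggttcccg
Pgk1: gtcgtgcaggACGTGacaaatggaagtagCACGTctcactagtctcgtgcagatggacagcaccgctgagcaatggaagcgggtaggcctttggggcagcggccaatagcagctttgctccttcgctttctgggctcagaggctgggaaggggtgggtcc
Ldha: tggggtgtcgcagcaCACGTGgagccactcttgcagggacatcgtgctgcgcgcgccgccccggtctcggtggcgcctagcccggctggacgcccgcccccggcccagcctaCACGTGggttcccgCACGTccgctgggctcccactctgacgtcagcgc
The Ldha window held the E-box at 2 places and a further ACGTG, and the Pgk1 and Slc2a1 windows held 2 matches each. Hk2, which was not higher in ILC2 than in progenitors across the sets, also had an ACGTG match in its window.

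Finally, genes outside the lists were ranked by how closely their level followed the mean of the 10 genes over the 10 sets, on log2(CPM + 1). The 5 most alike were Fam104a (Pearson r 0.94), Ifngr2 (0.94), Helz (0.92), Lztfl1 (0.90) and Paxbp1 (0.90), among genes of at least 50 CPM in a set. Lztfl1 had 236 CPM in ILC2 Ly6a-high, 168 and 265 CPM in ILC2 Ly6a-low, 27.0 and 28.9 CPM in NK/ILC1, 275 CPM in gamma-delta T, 35.1 and 68.4 CPM in DN2/DN3, and 29.6 and 50.2 CPM in progenitor barcodes of suffix 1 and suffix 2. Among the 10 genes themselves, Pgk1 (0.87) and Gpi1 (0.85) followed the mean of the other 9 most closely, and Slc2a3 (-0.34) and Slc2a1 (-0.17) ran against it. These are correlations over 10 sets that share 2 barcode suffixes, given as a description.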

How the data were processed

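DN1 cells of the embryonic thymus were profiled with 10x 3′ v3 chemistry, and the labels' protocols mention a lysis step that yields nuclei. The authors deposited a single table of raw UMI counts, unnormalized, with genes in rows and barcodes in columns. Cell Ranger 3.0.2 and STAR on GRCm38 were used per the submitters' processing notes. Of the columns, 0 are tied to a library by a label, and each barcode suffix was taken as 1 library. Barcodes with under 500 genes or over 10% mitochondrial UMIs were removed (35 in suffix 1, 507 in suffix 2), as were Scrublet doublets (scanpy 1.11.5), 10 in suffix 1 (0.466%) and 93 in suffix 2 (2.76%). The rate in suffix 1 is low for a working caller, so doublets may remain there. The 2137 kept barcodes of suffix 1 held 39767463 UMIs (median 14841) and the 3275 of suffix 2 held 59222697 (median 13688).

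UMIs were summed per gate and suffix. Levels have exact Poisson intervals, log2 ratios conditional exact intervals and shares Clopper-Pearson intervals at 95%. Genes with at least 20 UMIs over both sets were compared, a count of 0 was set at 3 counts, and genes past a log2 ratio of 1 were counted, with no test. Thinning to 6974 UMIs left out 540 shallower barcodes. The named genes are the 10 members, the 4 most abundant of each list, those past 1 in the same direction in both suffixes with at least 20 CPM, and the 5 most alike. The gates, the 10 genes and the lists were chosen with earlier results of these data known. The ratio function was tested on simulated data. Computations ran in Python 3.11.15 with numpy 2.4.6, scipy 1.17.1 and pandas 2.3.3.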

Additional observations from a re-analysis of the deposited data

Results flagged for a closer look

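In NK/ILC1 over progenitor barcodes Pkm was on opposite sides of 0 in the suffixes, with log2 ratios of 0.1855 within suffix 1 and -0.5394 within suffix 2. Both intervals excluded 0, and the signs held in all 12 alternatives. In DN2/DN3 over progenitor barcodes Gpi1 was at -0.1236 within suffix 1 and 0.1531 within suffix 2, and Aldoa at -0.1297 and 0.2509. With gates on thinned UMIs, Gpi1 turned in both suffixes and Aldoa in suffix 1, and Aldoa in suffix 1 also turned with overlapping gates allowed (0.025). Each suffix was taken as 1 library, so the differences between suffixes were not tested.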

How the results depend on the processing

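The median log2 ratio of the 10 genes was recomputed under 12 alternatives for 15 comparisons, and 177 of 180 values stayed between the 2nd and 9th of the ordered ratios. Among the 3 that did not, ILC2 Ly6a-low (0.59) and NK/ILC1 (0.23) over progenitor of suffix 1 came with gates on thinned UMIs. The other was suffix 1 over suffix 2 in DN2/DN3 among barcodes with no Mki67 or Top2a UMI after thinning (-0.49). The cause was not tested. The sign of the median held in all 12 alternatives for 10 of the comparisons. The exceptions were NK/ILC1 over progenitor of suffix 1 (-0.12 to 0.23), DN2/DN3 over progenitor of suffix 1 (-0.15 to 0.17), Ly6a-high over Ly6a-low (-0.036 to 0.11), and suffix 1 over suffix 2 in ILC2 Ly6a-low (-0.19 to 0.0058) and in progenitors (-0.11 to 0.048). The count of genes past a log2 ratio of 1 changed by over 1.5 times in 27 of 180 cases, to 1 or 2 genes in each. It came to 1 in ILC2 Ly6a-low over progenitor of suffix 1 (6 alternatives, as Aldoa came under 1) and in NK/ILC1 over progenitor of suffix 1 (3) and suffix 2 (1). It came to 1 or 2 in gamma-delta T over progenitor (6), DN2/DN3 over progenitor (2 in each suffix) and suffix 1 over suffix 2 in NK/ILC1 (3). Single alternatives gave 1 in Ly6a-high over Ly6a-low and in suffix 1 over suffix 2 of DN2/DN3 and of progenitors, and 2 in NK/ILC1 over ILC2 of suffix 2. With at least 1 UMI in each set as the filter, the share of all genes past 1 was 13.3% in DN2/DN3 over progenitor of suffix 1, 10.2% in Ly6a-high over Ly6a-low, and 13.4%, 12.2% and 11.0% in suffix 1 over suffix 2 of ILC2 Ly6a-low, DN2/DN3 and progenitor barcodes, more than 1.5 times the share with 20 UMIs. Median-of-ratios scaling moved all ratios by over 0.1 in Ly6a-high over progenitor (0.14), NK/ILC1 over progenitor (0.21 and 0.12), Ly6a-high over Ly6a-low (0.11) and NK/ILC1 over ILC2 of suffix 1 (0.22), and totals without ribosomal, mitochondrial and haemoglobin genes did so in NK/ILC1 of suffix 2 over progenitor (-0.14) and over ILC2 (-0.13). No paired analysis was possible because the columns carry no replicate numbers, and no library could be left out because each stage has 1. The alternative without barcodes holding Krt8 or Prss16 was chosen after seeing the data. Depth limits Slc2a1, Slc2a3, Hk1 and Hk2 most, whose intervals are the widest.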

Other observations

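Barcodes in no gate or in several were not compared. In suffix 1, 557 such barcodes had a summed level of 2967 CPM for the 10 genes, with Aldoa at 512 CPM and Ldha at 943 CPM. In suffix 2, 1170 such barcodes had 3607 CPM, with Aldoa at 825 CPM and Ldha at 1052 CPM.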
